A study of Mus musculus with 9 samples.

Results

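The genes of glycolysis and of the pentose phosphate pathway were followed through 9 RNA-seq libraries of transduced mouse bone marrow cells. The members were taken by gene symbol from a list of 34, which covers the enzymes from hexokinase to lactate dehydrogenase, the PFKFB enzymes, fructose-1,6-bisphosphatase, the pentose phosphate enzymes, 2 pyruvate dehydrogenase kinases, a subunit of pyruvate dehydrogenase and bisphosphoglycerate mutase. The symbols matched 35 of 55274 gene identifiers, because Aldoa is listed under 2 identifiers. Of these, 33 had at least 1 FPKM (fragments counted per length of transcript and per size of the library) in at least 3 of the 9 libraries and were tested, among 13493 tested genes. Eno2 and Fbp1 stayed below this level and were not tested.

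Each group held 3 libraries. NRASG12D cells carried a RAS protein locked in its active form, NUP98-NSD1 cells carried a fusion of a nuclear pore protein with a histone methyltransferase, and NUP98-NSD1+NRASG12D cells carried both. All 3 groups came from the marrow of young adult female C57BL/6J mice that had received 150 mg/kg of 5-fluorouracil and were harvested on day 4. The cells were stimulated for 48 h with human interleukin-6, murine interleukin-3 and murine stem cell factor, transduced with MSCV retroviral vectors that carry a GFP marker for the fusion and a BFP marker for NRASG12D, sorted by fluorochrome and expanded. Both proteins were therefore expressed from a viral promoter, and no untransduced or empty-vector library was analysed here. No source says whether the 3 libraries of a group came from separate animals or cultures, so the p-values measure only the spread between these libraries.

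Glycolysis splits glucose into pyruvate in the cytosol and yields ATP, and lactate dehydrogenase turns pyruvate into lactate while regenerating NAD+. The pentose phosphate pathway branches off at glucose-6-phosphate and supplies NADPH, which the phagocyte oxidase and glutathione reductase use, and ribose for nucleotides. Several steps exist as isoenzymes encoded by different genes, and neutrophils are known to rely on glycolysis and to express the hexokinase Hk3.

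The libraries held between 22434099.8 and 35335689 fragments, as estimated from the steps between low values. Nras, the gene of the introduced cDNA, had 354, 479 and 348 FPKM in NRASG12D, 50.3, 47.7 and 51.2 in NUP98-NSD1 and 245, 262 and 701 in NUP98-NSD1+NRASG12D libraries, and was thus highest in the groups labelled NRASG12D. The labels name bone marrow only. Summed over 9 mast cell markers, the FPKM was 30017 to 32656 in NRASG12D, 13672 to 17477 in the NUP98-NSD1 libraries and 459 to 2514 in NUP98-NSD1+NRASG12D. A further mast cell marker, Cpa3, is listed at 0 in every NRASG12D library and was left out of this sum, since an exact 0 next to high levels of the other markers may be a failed estimate. Cpa3 had 12564 to 14379 FPKM in NUP98-NSD1, and with it the sum there was 26832 to 31856. Mcpt4 and Hdc, also mast cell markers, were higher in every NUP98-NSD1 than in every NRASG12D library, so the markers did not all move together. The 12 neutrophil markers summed to 26.6 to 34.8, 1751 to 6226 and 9007 to 19951 FPKM in the same order. The 10 monocyte and macrophage markers summed to 47.8 to 132, 1344 to 1872 and 4007 to 10609. Of the neutrophil markers, 3 (Ltf, Camp and Retnlg) were at 0 in every NRASG12D library, and markers of B and T cells summed to at most 0.517 FPKM in any library. The makeup of the cultures thus moved with the groups compared below, and its part in the results was not tested. In these bulk samples a change in the share of a cell type and a change of RNA per cell cannot be told apart.

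Over all 35 identifiers, the mean log2(FPKM + 1) was 4.86, 4.99 and 4.89 in the NRASG12D libraries, 5.74, 5.63 and 5.33 in NUP98-NSD1, and 6.07, 5.79 and 6.16 in NUP98-NSD1+NRASG12D. The groups did not overlap, and the lowest NUP98-NSD1 library, replicate 3, lay nearest to NRASG12D. The difference of the means was 0.65 between NUP98-NSD1 and NRASG12D, 1.09 between NUP98-NSD1+NRASG12D and NRASG12D, and 0.44 between NUP98-NSD1+NRASG12D and NUP98-NSD1. The mean over all tested genes was 3.48, 3.56 and 3.45 in NRASG12D and 3.89, 3.88 and 3.77 in NUP98-NSD1. In NUP98-NSD1+NRASG12D it was 3.85, 3.76 and 3.70, so the level of all tested genes was also higher with the fusion than in NRASG12D. Aldoa, Pkm and Ldha, which encode aldolase A, muscle-type pyruvate kinase and the A subunit of lactate dehydrogenase, were the 3 most abundant members in NRASG12D and in NUP98-NSD1. In NUP98-NSD1+NRASG12D the order was Pkm, Aldoa and Eno1, and Pkm ranked 9 among all genes by mean FPKM, against 62 in NRASG12D and 42 in NUP98-NSD1.

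**Figure D1:**
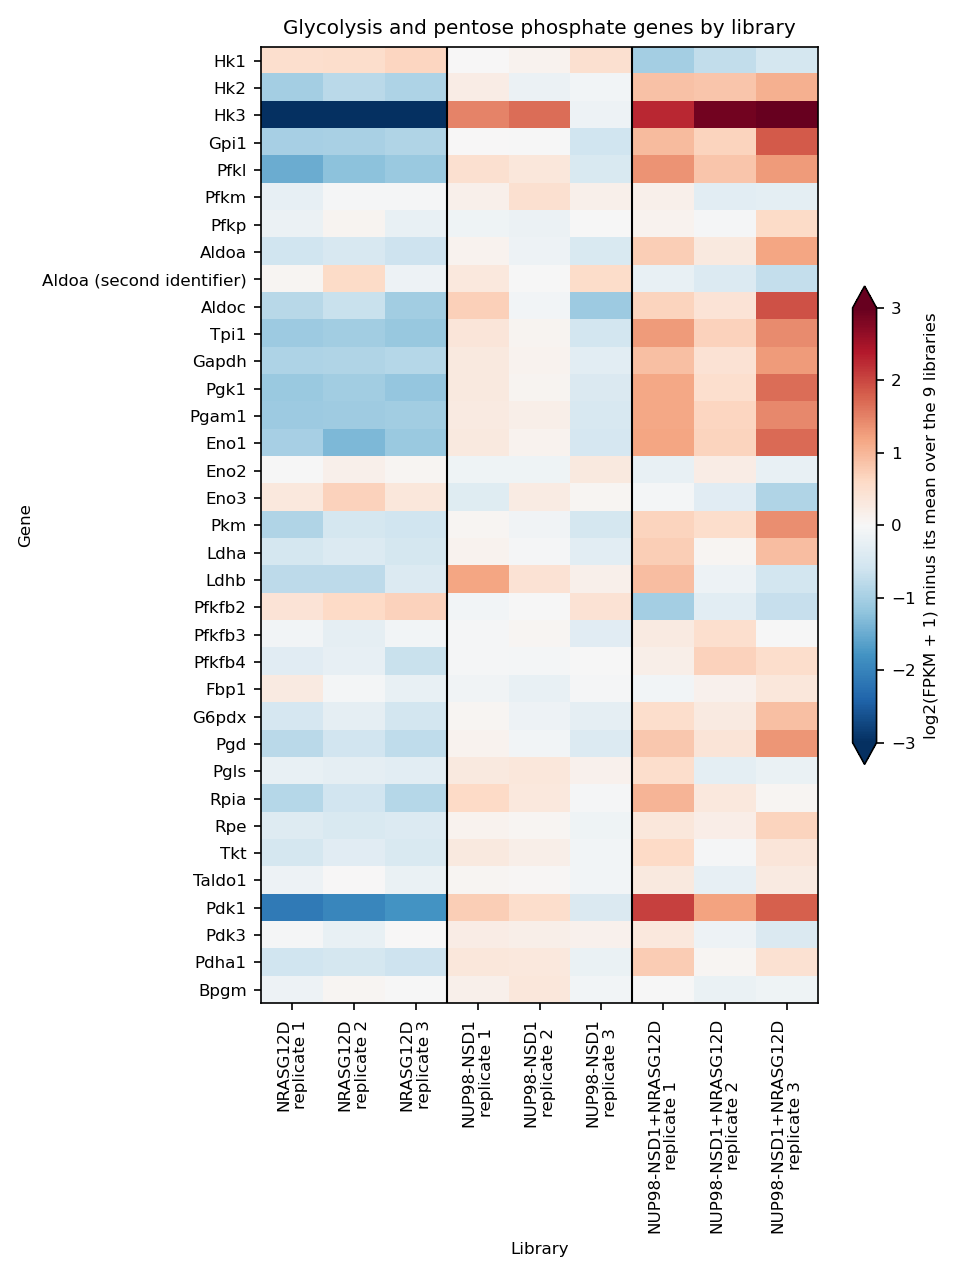
Each row is a gene in pathway order and each column a library, and the colour gives log2(FPKM + 1) minus the gene's mean over the 9 libraries, with the colour scale ending at 3 on either side. Most glycolytic genes turn from blue in NRASG12D to red in NUP98-NSD1+NRASG12D, while Hk1, Eno3 and Pfkfb2 run the other way.

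Differences between groups were tested by limma on log2(FPKM + 1) over the 6 libraries of each pair, and p-values were adjusted by Benjamini-Hochberg over every tested gene, with a threshold of 0.05. A difference is given as the first group minus the second, and it understates the change of genes with low FPKM. Both comparisons with NRASG12D use the same 3 NRASG12D libraries.

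Between NUP98-NSD1 and NRASG12D, 21 members were higher in NUP98-NSD1, none was lower at an adjusted p under 0.05, 12 did not pass and 2 were not tested. Limma called 42.2% of all tested genes higher and 9.98% lower in this comparison. Hk3 and Ldhb are among the 21 and reached 1 FPKM only in libraries of the groups with the fusion, so that they passed the filter through the groups where they were high. The member share called higher was 63.6% of the tested identifiers. In 24 members every NUP98-NSD1 library lay above every NRASG12D library, against 50.7% of all tested genes. The difference had a median of 0.52 over the tested members and 0.27 over all tested genes. With FPKM rescaled by the median of ratios between libraries, the median of all genes moved to 0.01 and the calls over all genes from 5689 higher and 1347 lower to 3231 higher and 2950 lower. The members then counted 15 higher and 3 lower, the 3 being Hk1, Eno3 and Pfkfb2. The calls lost by this scaling were those of Pfkm, Ldha, Pfkfb4, Pgd, Rpe and Pdk3, and the differences of Gpi1, Pgls, Tkt and Pdha1 shrank to 0.46, 0.22, 0.26 and 0.43. When a library was left out, the calls of Pfkm, Ldha and Pdk3 were lost without any 1 NRASG12D library or NUP98-NSD1 replicate 1 or 2, and that of Pfkfb4 without NRASG12D replicate 1 or 3 or any 1 NUP98-NSD1 library.

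Between NUP98-NSD1+NRASG12D and NRASG12D, 21 members were higher, 3 were lower and 9 did not pass. Hk3, which passed the filter only through the groups with the fusion, is again among the 21. The background was 24.2% of all tested genes called higher and 14.1% called lower. In 22 members all NUP98-NSD1+NRASG12D libraries lay above all NRASG12D libraries, which held for 38.7% of all tested genes. The difference had a median of 1.01 over the tested members and 0.23 over all tested genes. After median-ratio scaling the members counted 20 higher and 3 lower, and all genes 2773 higher and 2449 lower, from 3266 and 1907. The calls of Aldoa, Pfkfb4 and Rpia were lost without NRASG12D replicate 1 or 3, and those of Ldha, Eno3 and Tkt without any 1 NRASG12D library or NUP98-NSD1+NRASG12D replicate 3.

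Between NUP98-NSD1+NRASG12D and NUP98-NSD1, only Hk2 was called higher and only Hk1 lower, against 2.3% and 6.31% of all tested genes. Even so, 16 members (48.5% of those tested) lay higher in every NUP98-NSD1+NRASG12D library than in any NUP98-NSD1 library, against 11.6% of all tested genes. These were Hk2, Hk3, Gpi1, Pfkl, Aldoa, Tpi1, Gapdh, Pgk1, Pgam1, Eno1, Pkm, Pfkfb4, G6pdx, Pgd, Rpe and Pdk1. Hk1, Pfkm, Pfkfb2 and the second Aldoa identifier lay lower without overlap. The share of all tested genes that lay lower without overlap was not computed, so these members are only listed. The second Aldoa identifier stayed below 1 FPKM in every NUP98-NSD1+NRASG12D library and passed the filter only through the other groups. The difference had a median of 0.49 over the tested members and -0.06 over all tested genes. The number of calls depended on how the spread was estimated, for all genes as for the members. Limma with a single fit of all 9 libraries called 14 members higher and 2 lower, with 840 and 1411 of all genes, and with library weights 17 and 3, with 1183 and 2317 of all genes, against 311 and 851 in the fit of each pair.

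**Figure D2:**
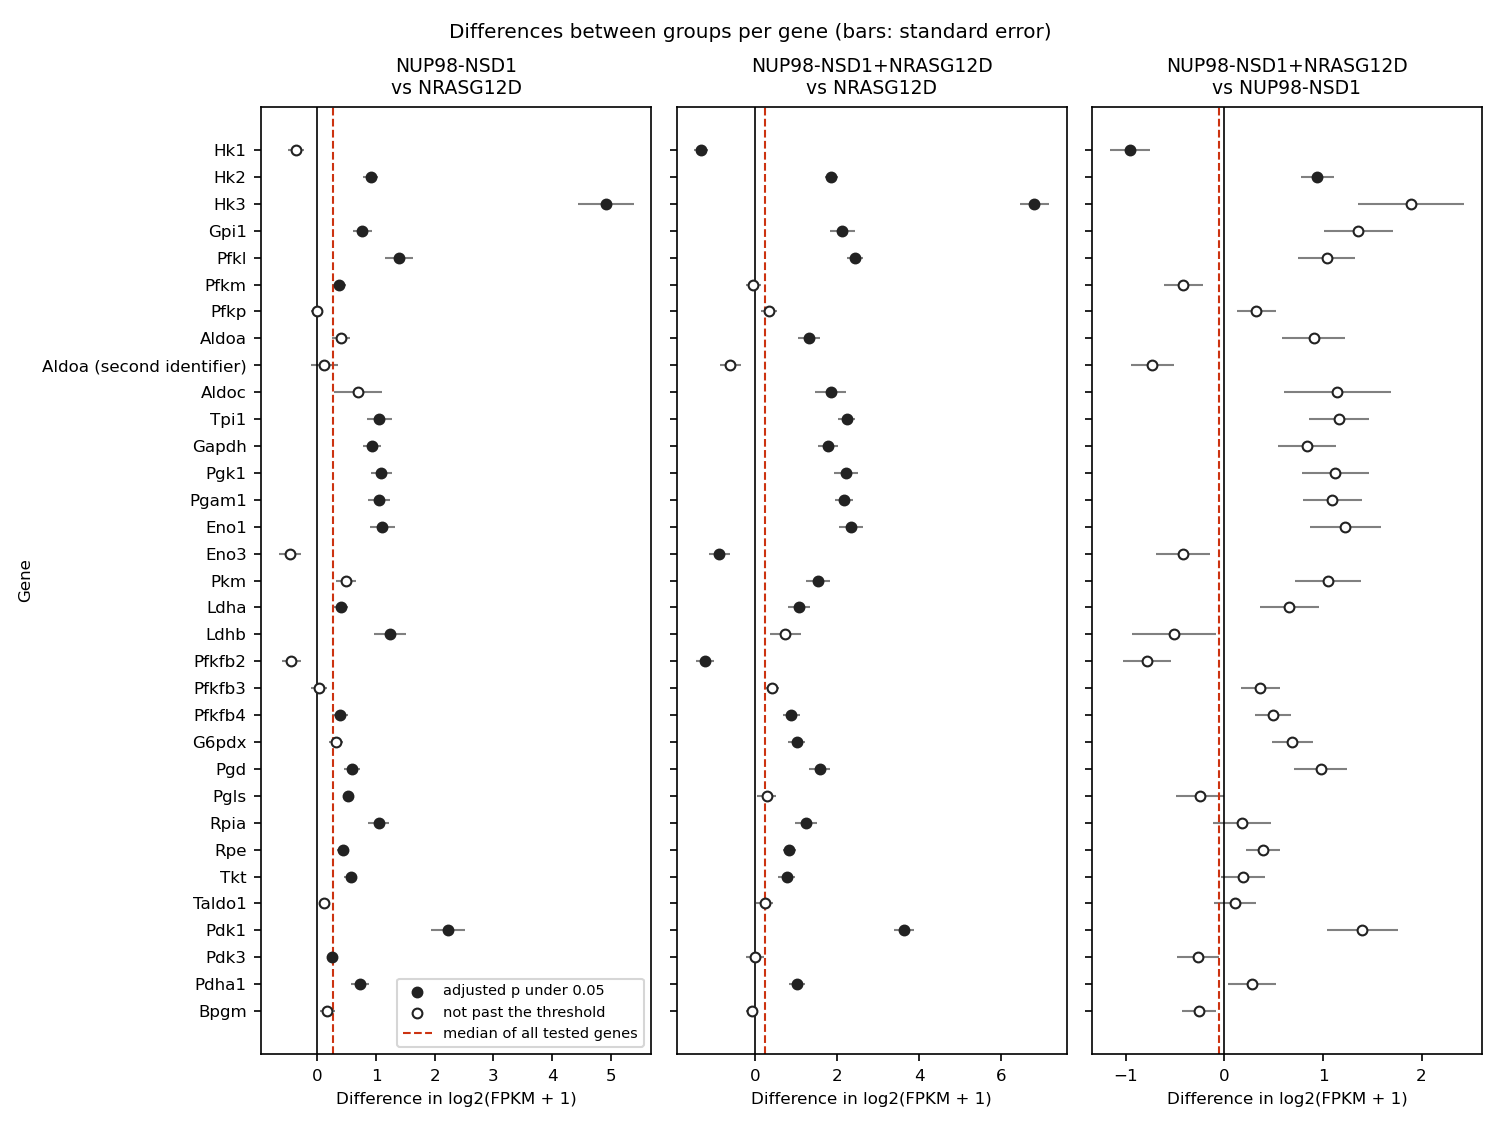
Each point is the difference in log2(FPKM + 1) of a gene with its standard error, filled where the adjusted p was under 0.05, for the 3 pairs of groups, and the dashed line is the median of all tested genes. Hk3 and Pdk1 stand farthest to the right in both comparisons with NRASG12D, where 21 members are filled to the right of 0. The filled points include Hk3 in both and Ldhb in NUP98-NSD1 against NRASG12D. Both genes passed the filter only through the groups where they were high, so their filling is not read as a test.

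Hexokinase phosphorylates glucose and so commits it to the cell, and its 3 genes moved in different directions. Hk3 (ENSMUSG00000025877.14, chromosome 13 from 55005985 to 55021385, minus strand, GRCm38), the hexokinase of myeloid cells, had 0.0289, 0.670 and 0.0619 FPKM in the NRASG12D libraries, 50.2, 57.8 and 15.5 in NUP98-NSD1 and 87.4, 135 and 213 in NUP98-NSD1+NRASG12D. It lay below 1 FPKM in every NRASG12D library and passed the filter only through the other groups. Its 3 groups did not overlap, and replicate 3 was the lowest NUP98-NSD1 and the highest NUP98-NSD1+NRASG12D library. The NRASG12D values correspond to about 2.55, 87.2 and 5.11 fragments, and 3 fragments equal 0.0363 FPKM in the shallowest library, so the size of the fold depends on the pseudocount. Hk3 was higher than in NRASG12D by 4.91 on the log2 scale in NUP98-NSD1 and by 6.81 in NUP98-NSD1+NRASG12D. These differences are given with no test, since the filter was passed through the groups where Hk3 was high. Between the groups with the fusion the difference was 1.90 ± 0.54 (SE, adjusted p = 0.0778), which missed the threshold.

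Hk1 (ENSMUSG00000037012.18, chromosome 10 from 62268855 to 62379908, minus strand), the hexokinase found in most tissues, had 184, 187 and 199.7 FPKM in the NRASG12D libraries, 128, 138 and 180.4 in NUP98-NSD1 and 62.5, 77.1 and 88.5 in NUP98-NSD1+NRASG12D. The NUP98-NSD1+NRASG12D libraries were the lowest of all 9, and Hk1 fell there against NRASG12D with a difference of -1.32 ± 0.17 (SE, adjusted p = 0.00136) and against NUP98-NSD1 with -0.96 ± 0.21 (SE, adjusted p = 0.0363). Between NUP98-NSD1 and NRASG12D it was -0.36 ± 0.13 (SE, adjusted p = 0.0532), with no overlap. Hk2 (ENSMUSG00000000628.10, chromosome 6 from 82725025 to 82774454, minus strand), the isoenzyme induced in growing and insulin-responsive cells, had 6.24, 7.38 and 6.65 FPKM in the NRASG12D libraries, 16.1, 12.0 and 12.9 in NUP98-NSD1 and 26.1, 25.2 and 29.8 in NUP98-NSD1+NRASG12D. The 3 groups of Hk2 were in separate ranges, and it passed the test in all 3 comparisons, with 0.91 ± 0.13 (SE, adjusted p = 0.00212) for NUP98-NSD1 against NRASG12D, 1.85 ± 0.15 (SE, adjusted p = 0.00023) for NUP98-NSD1+NRASG12D against NRASG12D and 0.94 ± 0.17 (SE, adjusted p = 0.0214) between the groups with the fusion. Between the groups with the fusion, Hk1 and Hk2 kept their direction in every alternative run, but each lost its call when NUP98-NSD1 replicate 1, 2 or 3 or NUP98-NSD1+NRASG12D replicate 3 was left out, and Hk1 also without NUP98-NSD1+NRASG12D replicate 2. Both calls were lost without a filter, and that of Hk1 also after median-ratio scaling (adjusted p = 0.0944 by limma) and quantile normalization (0.0564).

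The summed FPKM of the 3 hexokinases overlapped among all groups. It was 197 ± 8.43 (SD, n = 3) in NRASG12D, 204 ± 7.99 in NUP98-NSD1 and 248 ± 78.2 in NUP98-NSD1+NRASG12D, and the last group ranged from 176 to 331. Hk1 made up 96.4% ± 0.497 (SD, n = 3) of the sum in NRASG12D, 72.9% ± 11.7 in NUP98-NSD1 and 31.6% ± 4.48 in NUP98-NSD1+NRASG12D. Hk3 made up 0.130% ± 0.186, 20.3% ± 11.2 and 56.9% ± 7.32 in the same order. The share of Hk3 in the NUP98-NSD1 libraries was 25.8, 27.8 and 7.43%. The library with the lowest share, replicate 3, also had the lowest neutrophil marker sum of its group (1751 FPKM, against 5897 and 6226). In NUP98-NSD1+NRASG12D this did not hold. The Hk3 shares there were 49.6, 56.8 and 64.3%, lowest in replicate 1. The neutrophil sums were 14985, 9007 and 19951 FPKM, lowest in replicate 2.

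**Figure D3:**
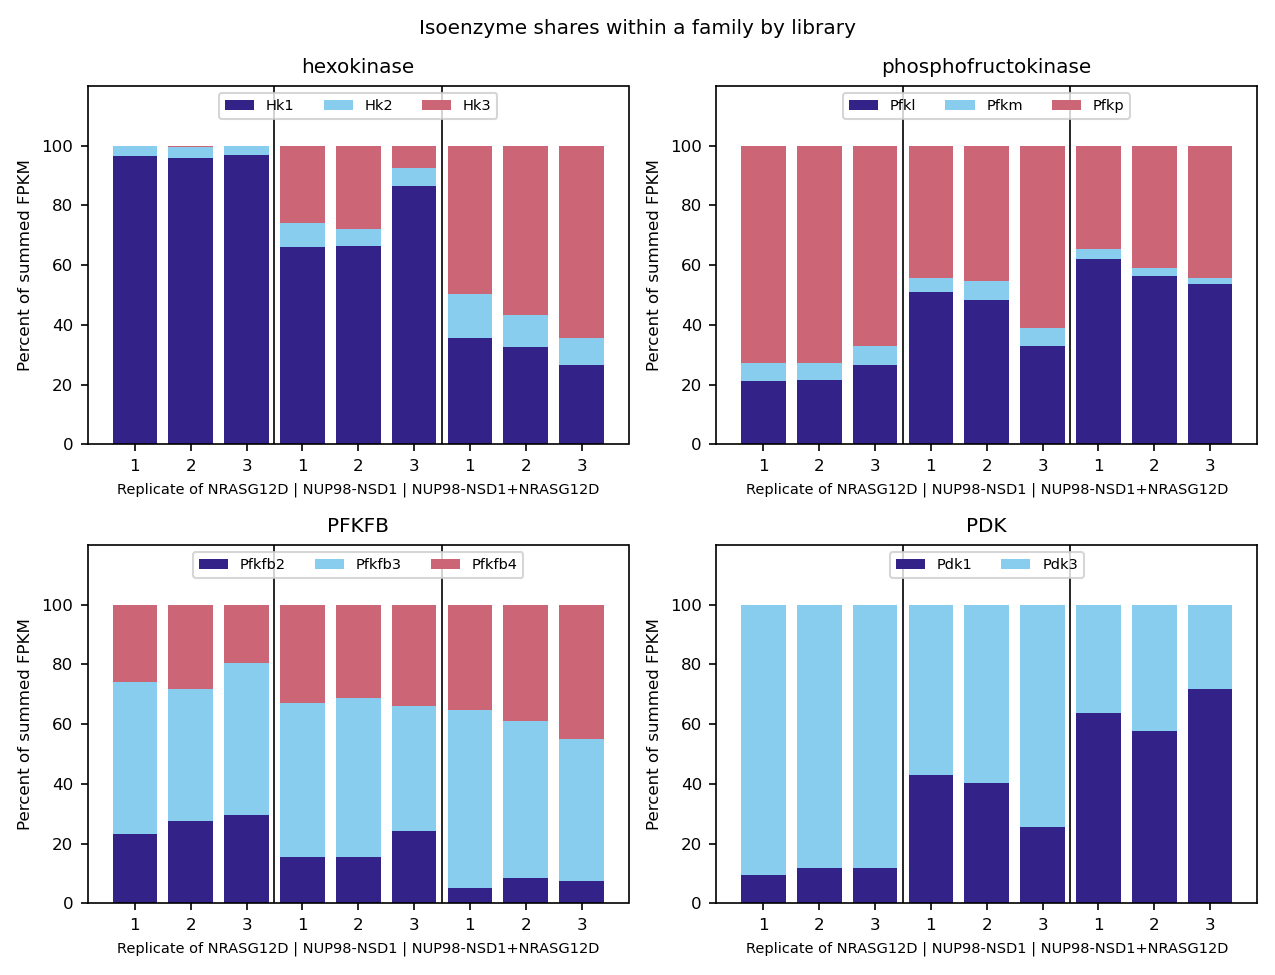
Stacked bars give the percent of the summed FPKM of a family held by each isoenzyme gene in the 9 libraries, with the groups set apart by vertical lines. Hk1 makes up over 95% of hexokinase in NRASG12D and under 36% in NUP98-NSD1+NRASG12D, and Pfkl and Pdk1 grow in share in their families.

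Phosphofructokinase carries out the committed, regulated step of glycolysis as a tetramer of liver (Pfkl), muscle (Pfkm) and platelet (Pfkp) type subunits. Pfkl (ENSMUSG00000020277.10, chromosome 10 from 77986947 to 78010083, minus strand) had 21.6, 26.1 and 28.2 FPKM in the NRASG12D libraries, 87.4, 78.8 and 45.1 in NUP98-NSD1 and 161, 112 and 152 in NUP98-NSD1+NRASG12D. Its groups did not overlap, and it rose by 1.39 ± 0.24 (SE, adjusted p = 0.00401) in NUP98-NSD1 and by 2.43 ± 0.19 (SE, adjusted p = 0.000216) in NUP98-NSD1+NRASG12D against NRASG12D. The difference between the groups with the fusion was 1.04 ± 0.29 (SE, adjusted p = 0.0718). Pfkp had 73.6, 87.7 and 71.4 FPKM in the NRASG12D libraries, 75.9, 73.4 and 83.0 in NUP98-NSD1 and 89.5, 81.6 and 125 in NUP98-NSD1+NRASG12D, and all 3 groups overlapped, with adjusted p of 0.992, 0.229 and 0.387. Pfkm, the least abundant of the 3, had 5.93, 6.94 and 6.98 FPKM in the NRASG12D libraries, 8.12, 10.3 and 8.15 in NUP98-NSD1 and 8.04, 5.54 and 5.70 in NUP98-NSD1+NRASG12D. Its call in NUP98-NSD1 against NRASG12D, 0.37 ± 0.13 (SE, adjusted p = 0.0436), was lost after median-ratio scaling (difference of 0.10, adjusted p = 0.521 by limma). The share of Pfkl in the family was 23.1% ± 2.88 (SD, n = 3) in NRASG12D, 44.2% ± 9.69 in NUP98-NSD1 and 57.4% ± 4.32 in NUP98-NSD1+NRASG12D, and that of Pfkp 70.8% ± 3.30, 50.1% ± 9.37 and 39.9% ± 4.83.

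The PFKFB enzymes set the level of fructose-2,6-bisphosphate, the main activator of phosphofructokinase. Pfkfb2 had 4.98, 5.78 and 6.24 FPKM in the NRASG12D libraries, 3.30, 3.47 and 5.08 in NUP98-NSD1 and 1.21, 2.65 and 1.82 in NUP98-NSD1+NRASG12D. It fell in NUP98-NSD1+NRASG12D against NRASG12D, with -1.23 ± 0.22 (SE, adjusted p = 0.00572), and NUP98-NSD1 replicate 3 lay within the NRASG12D range. Pfkfb3 had 10.8, 9.28 and 10.8 FPKM in the NRASG12D libraries, 11.1, 11.9 and 8.75 in NUP98-NSD1 and 13.9, 16.6 and 11.4 in NUP98-NSD1+NRASG12D and passed the test in no comparison. Pfkfb4 had 5.56, 5.90 and 4.14 FPKM in the NRASG12D libraries, 7.08, 6.92 and 7.13 in NUP98-NSD1 and 8.23, 12.3 and 10.8 in NUP98-NSD1+NRASG12D. It was higher than in NRASG12D by 0.39 ± 0.13 (SE, adjusted p = 0.0442) in NUP98-NSD1 and by 0.88 ± 0.21 (SE, adjusted p = 0.0161) in NUP98-NSD1+NRASG12D. Both calls were lost after median-ratio scaling, with differences of 0.12 and 0.71 (adjusted p = 0.447 and 0.0515 by limma). The summed FPKM of the 3 genes was 21.2 ± 0.192, 21.6 ± 0.650 and 26.3 ± 4.53 (SD, n = 3), and within it the share of Pfkfb2 was 26.8% ± 3.13, 18.4% ± 5.05 and 7.05% ± 1.67 in the same order. Fbp1, fructose-1,6-bisphosphatase, which runs the phosphofructokinase step backwards, stayed at or below 0.473 FPKM in every library.

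The steps between the hexose phosphates and pyruvate, most of them served by a single abundant gene, rose together in NUP98-NSD1+NRASG12D. Gpi1 (ENSMUSG00000036427.5, chromosome 7 from 34201330 to 34230336, minus strand), glucose-6-phosphate isomerase, had 169.8, 171 and 179 FPKM in the NRASG12D libraries, 343, 333 and 224 in NUP98-NSD1 and 659, 543 and 1216 in NUP98-NSD1+NRASG12D. Replicate 3 of NUP98-NSD1+NRASG12D was the highest and replicate 3 of NUP98-NSD1 the lowest of its group, and no groups overlapped. The differences from NRASG12D were 0.76 ± 0.16 (SE, adjusted p = 0.00805) and 2.12 ± 0.30 (SE, adjusted p = 0.00209), and 1.36 ± 0.35 (SE, adjusted p = 0.0597) between the groups with the fusion. Aldoa, which splits fructose-1,6-bisphosphate into triose phosphates, had 878, 954 and 868 FPKM in the NRASG12D libraries, 1449.7, 1205 and 973 in NUP98-NSD1 and 2225, 1649 and 3041 in NUP98-NSD1+NRASG12D. It was higher in NUP98-NSD1+NRASG12D than in NRASG12D by 1.31 ± 0.27 (SE, adjusted p = 0.00989), and the difference was 0.41 ± 0.15 (SE, adjusted p = 0.0554) in NUP98-NSD1, which did not pass. Aldoc, the brain-type aldolase, had 6.48, 7.41 and 5.4997 FPKM in the NRASG12D libraries, 20.7, 11.7 and 5.28 in NUP98-NSD1 and 20.2, 16.6 and 48.9 in NUP98-NSD1+NRASG12D. It rose in NUP98-NSD1+NRASG12D against NRASG12D by 1.84 ± 0.38 (SE, adjusted p = 0.01), while in NUP98-NSD1 replicate 3 lay below the NRASG12D libraries. Aldoa kept 98.4% to 99.5% of the family in every library. The second Aldoa identifier, on the same strand next to Aldoa, had at most 1.64 FPKM and passed no test.

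Tpi1 (ENSMUSG00000023456.15, chromosome 6 from 124810586 to 124814296, minus strand), triose-phosphate isomerase, had 99.99, 103 and 96.3 FPKM in the NRASG12D libraries, 275, 225 and 146 in NUP98-NSD1 and 518, 346 and 571 in NUP98-NSD1+NRASG12D. Its rise against NRASG12D was 1.05 ± 0.21 (SE, adjusted p = 0.00651) in NUP98-NSD1 and 2.22 ± 0.22 (SE, adjusted p = 0.000452) in NUP98-NSD1+NRASG12D. Gapdh (ENSMUSG00000057666.18, chromosome 6 from 125161715 to 125166467, minus strand), which makes NADH and is often used as a reference gene, had 272, 279 and 288 FPKM in the NRASG12D libraries, 639.6, 561 and 422 in NUP98-NSD1 and 976, 699 and 1260.1 in NUP98-NSD1+NRASG12D. With separate ranges in the 3 groups, it was not constant here, and the differences from NRASG12D were 0.93 ± 0.15 (SE, adjusted p = 0.00318) and 1.76 ± 0.24 (SE, adjusted p = 0.0018). Pgk1 (ENSMUSG00000062070.12, chromosome X from 106187100 to 106203699, plus strand), phosphoglycerate kinase, the first ATP-producing step, had 66.1, 70.0 and 64.5 FPKM in the NRASG12D libraries, 178, 154 and 108 in NUP98-NSD1 and 325, 204 and 466 in NUP98-NSD1+NRASG12D. Its differences were 1.09 ± 0.17 (SE, adjusted p = 0.00303) and 2.22 ± 0.29 (SE, adjusted p = 0.00149). For these 3 genes the groups with the fusion did not overlap either, but the adjusted p were 0.0628, 0.135 and 0.0921.

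Pgam1 (ENSMUSG00000011752.7, chromosome 19 from 41911923 to 41918660, plus strand), phosphoglycerate mutase, had 132, 135 and 137 FPKM in the NRASG12D libraries, 341, 319.5 and 204 in NUP98-NSD1 and 632, 447 and 771 in NUP98-NSD1+NRASG12D, and rose by 1.06 ± 0.19 (SE, adjusted p = 0.00423) and 2.15 ± 0.22 (SE, adjusted p = 0.000586) against NRASG12D. Eno1 (ENSMUSG00000063524.13, chromosome 4 from 150236721 to 150248879, plus strand), the ubiquitous enolase, had 438, 346 and 404 FPKM in the NRASG12D libraries, 1064, 948 and 612 in NUP98-NSD1 and 1987, 1394 and 2849.8 in NUP98-NSD1+NRASG12D. The NUP98-NSD1+NRASG12D libraries spread widely, yet all lay above the NUP98-NSD1 libraries. Against NRASG12D Eno1 rose by 1.11 ± 0.21 (SE, adjusted p = 0.00529) in NUP98-NSD1 and 2.33 ± 0.29 (SE, adjusted p = 0.00125) in NUP98-NSD1+NRASG12D. Eno3, the muscle enolase, went the other way with 3.59, 5.04 and 3.69 FPKM in the NRASG12D libraries, 1.91, 3.41 and 2.89 in NUP98-NSD1 and 2.59, 1.93 and 0.985 in NUP98-NSD1+NRASG12D. Its fall in NUP98-NSD1+NRASG12D was -0.88 ± 0.26 (SE, adjusted p = 0.0346). Eno2, the neuronal enolase, stayed at or below 0.439 FPKM, and Eno1 held at least 98.5% of the family in every library.

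Pkm, pyruvate kinase, which makes the second ATP, had 729 to 933 FPKM in NRASG12D, 941 to 1418 in the libraries with the fusion alone, and 1947 to 3569.5 with both proteins. The rise against NRASG12D was 1.53 ± 0.29 (SE, adjusted p = 0.00699) in NUP98-NSD1+NRASG12D and missed the threshold in NUP98-NSD1 (0.49 ± 0.17 SE, adjusted p = 0.0508). Gene-level FPKM do not separate its M1 and M2 splice forms. Ldha had 659.8, 709 and 660.5 FPKM in the NRASG12D libraries, 1015, 928 and 759.6 in NUP98-NSD1 and 1582, 992 and 1796 in NUP98-NSD1+NRASG12D. Against NRASG12D it was higher by 0.40 ± 0.12 (SE, adjusted p = 0.0282) in NUP98-NSD1 and by 1.06 ± 0.26 (SE, adjusted p = 0.0199) in NUP98-NSD1+NRASG12D. The call in NUP98-NSD1 was lost after median-ratio scaling (difference of 0.10, adjusted p = 0.439 by limma). Ldhb (ENSMUSG00000030246.11, chromosome 6 from 142490249 to 142507957, minus strand), the heart-type subunit, had 0, 0 and 0.296 FPKM in the NRASG12D libraries, 2.87, 1.32 and 0.905 in NUP98-NSD1 and 2.24, 0.553 and 0.171 in NUP98-NSD1+NRASG12D. It was listed at 0 in 2 NRASG12D libraries and reached 1 FPKM in exactly 3 libraries, all from the other groups, so it passed the filter only because it was high there, and its difference of 1.24 in NUP98-NSD1 is given with no test. Ldha made up at least 99.7% of the family in every library.

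Pyruvate dehydrogenase kinases switch off the entry of pyruvate into the citric acid cycle by phosphorylating the E1 alpha subunit, which Pdha1 encodes. Pdk1 (ENSMUSG00000006494.11, chromosome 2 from 71873224 to 71903858, plus strand) had 4.56, 5.21 and 5.97 FPKM in the NRASG12D libraries, 39.2, 33.7 and 16.7 in NUP98-NSD1 and 98.1, 54.3 and 81.9 in NUP98-NSD1+NRASG12D. After Hk3 it showed the largest differences from NRASG12D, 2.23 ± 0.29 (SE, adjusted p = 0.00164) in NUP98-NSD1 and 3.63 ± 0.24 (SE, adjusted p = 0.000124) in NUP98-NSD1+NRASG12D. The groups with the fusion did not overlap, with 1.40 ± 0.36 (SE, adjusted p = 0.0597). Pdk3 ranged from 38.2 to 44.9 FPKM in NRASG12D, 48.4 to 52.1 in the NUP98-NSD1 libraries and 32.4 to 55.7 in NUP98-NSD1+NRASG12D. Its difference in NUP98-NSD1 against NRASG12D, 0.25 ± 0.09 (SE, adjusted p = 0.0475), turned to -0.05 after median-ratio scaling and to -0.06 after quantile normalization. Pdk1 made up 11.1% ± 1.37 (SD, n = 3) of the sum of both kinases in NRASG12D, 36.3% ± 9.26 in NUP98-NSD1 and 64.4% ± 6.99 in NUP98-NSD1+NRASG12D. Pdha1 had 28.1 to 30.04 FPKM in NRASG12D, 37.8 to 55.4 in the libraries with the fusion alone, and 45.3 to 74.7 with both proteins, and rose by 0.73 ± 0.15 (SE, adjusted p = 0.00694) and 1.00 ± 0.20 (SE, adjusted p = 0.0081). Bpgm, which diverts a glycolytic intermediate to 2,3-bisphosphoglycerate in red cells, stayed between 7.73 and 11.7 FPKM and passed no test.

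In the pentose phosphate pathway, 5 of 7 genes were called higher in each comparison with NRASG12D, with Pgd, Rpia, Rpe and Tkt called in both, against 42.2% and 24.2% of all tested genes. After median-ratio scaling 3 of the 7 (Pgls, Rpia and Tkt) were called in NUP98-NSD1 against NRASG12D, beside 3231 of all 13493 genes. G6pdx, the NADPH-producing first enzyme, ranged from 64.7 to 78.8 FPKM in NRASG12D, 79.0 to 99.0 in the NUP98-NSD1 libraries and 114 to 179 in NUP98-NSD1+NRASG12D. It rose against NRASG12D in NUP98-NSD1+NRASG12D (1.01 ± 0.20 SE, adjusted p = 0.00822) and missed the threshold in NUP98-NSD1 (0.32 ± 0.12 SE, adjusted p = 0.0537). Pgd, which makes the second NADPH, ranged from 60.8 to 71.9, 80.9 to 115 and 141 to 272 FPKM in the same order, with 0.59 ± 0.14 (SE, adjusted p = 0.012) and 1.56 ± 0.25 (SE, adjusted p = 0.00323), the first going to 0.28 (adjusted p = 0.0727 by limma) after median-ratio scaling. Pgls, the lactonase between them, was called in NUP98-NSD1 (0.52 ± 0.08 SE, adjusted p = 0.00315), while its NUP98-NSD1+NRASG12D libraries, 211, 118 and 127 FPKM, overlapped the NRASG12D range.

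Of the non-oxidative genes, Rpia (ENSMUSG00000053604.5, chromosome 6 from 70765720 to 70792232, minus strand), ribose-5-phosphate isomerase, had 2.42, 3.14 and 2.42 FPKM in the NRASG12D libraries, 8.25, 6.70 and 5.01 in NUP98-NSD1 and 11.5, 6.70 and 5.45 in NUP98-NSD1+NRASG12D. It rose by 1.05 ± 0.18 (SE, adjusted p = 0.00373) in NUP98-NSD1 and by 1.23 ± 0.27 (SE, adjusted p = 0.0121) in NUP98-NSD1+NRASG12D, and the groups with the fusion overlapped. Rpe, the epimerase, rose by 0.43 ± 0.09 (SE, adjusted p = 0.00749) and 0.82 ± 0.16 (SE, adjusted p = 0.00786), and the first was 0.13 (adjusted p = 0.167 by limma) after median-ratio scaling. Tkt, transketolase, rose by 0.57 ± 0.11 (SE, adjusted p = 0.00636) and 0.76 ± 0.20 (SE, adjusted p = 0.0248). Taldo1, transaldolase, passed no test and ranged from 379 to 553 FPKM over all 9 libraries. After median-ratio scaling the difference of Taldo1 in NUP98-NSD1 against NRASG12D turned from 0.12 to -0.19, with neither past the threshold.

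Several of the most abundant members share sequence with near copies elsewhere in the genome, so their reads may be split or shared between entries. Of the 50-base stretches in the transcripts of Pgk1, 53.9% also occur in other genes, and the percent was 36.2 for Pgam1, 25.99 for Eno1, 25.8 for Pkm and 25.1 for Gapdh. Copies outside the gene that share at least 1% of its stretches held 43.5% to 44.9% of the summed FPKM of gene and copies for Pgk1, 32.2% to 33.2% for Pgam1 and 38.4% to 39.4% for Eno1. These shares hardly varied among the 9 libraries. With the copies added, an alternative chosen after seeing the data, NUP98-NSD1+NRASG12D differed from NRASG12D by 2.21 for Pgk1, 2.15 for Pgam1 and 2.35 for Eno1. G6pdx shares 10.6% of its stretches with Ikbkg and Pfkp 5.10% with Pitrm1, and reads from these stretches could not be told apart here.

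The upstream windows are shown for 4 of the rising genes that have a single annotated start, Hk3 with the largest difference, Pfkl with the largest in its family, and Pgk1 and Pgam1 of the abundant lower pathway. They are RefSeq windows of 300 bases around the start (GRCm38.p6), written 5′ to 3′ on the gene's strand, with ACGTG or GCGTG, the core letters of hypoxia response elements, on either strand in capitals. The Hk3 window is chr13:55021336-55021635, minus strand, that of Pfkl chr10:78009758-78010057, minus strand, that of Pgk1 chrX:106186850-106187149, plus strand and that of Pgam1 chr19:41911621-41911920, plus strand.
Hk3: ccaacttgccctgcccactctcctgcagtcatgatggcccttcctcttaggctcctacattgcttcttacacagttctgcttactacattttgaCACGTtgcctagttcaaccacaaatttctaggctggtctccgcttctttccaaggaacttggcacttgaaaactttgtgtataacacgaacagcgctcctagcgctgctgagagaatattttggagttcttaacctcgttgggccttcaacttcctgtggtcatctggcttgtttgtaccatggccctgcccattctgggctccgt
Pfkl: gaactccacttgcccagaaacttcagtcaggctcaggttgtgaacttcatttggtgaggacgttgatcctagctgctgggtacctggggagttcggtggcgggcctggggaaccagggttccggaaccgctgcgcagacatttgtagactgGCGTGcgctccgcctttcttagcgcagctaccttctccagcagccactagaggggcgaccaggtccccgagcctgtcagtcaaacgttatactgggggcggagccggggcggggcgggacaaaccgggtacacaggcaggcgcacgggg
Pgk1: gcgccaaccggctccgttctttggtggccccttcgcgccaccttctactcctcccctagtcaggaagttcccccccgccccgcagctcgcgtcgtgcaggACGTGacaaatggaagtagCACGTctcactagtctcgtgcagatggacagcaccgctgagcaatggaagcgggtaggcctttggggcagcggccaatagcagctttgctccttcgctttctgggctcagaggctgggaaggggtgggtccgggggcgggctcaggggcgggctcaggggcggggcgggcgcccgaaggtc
Pgam1: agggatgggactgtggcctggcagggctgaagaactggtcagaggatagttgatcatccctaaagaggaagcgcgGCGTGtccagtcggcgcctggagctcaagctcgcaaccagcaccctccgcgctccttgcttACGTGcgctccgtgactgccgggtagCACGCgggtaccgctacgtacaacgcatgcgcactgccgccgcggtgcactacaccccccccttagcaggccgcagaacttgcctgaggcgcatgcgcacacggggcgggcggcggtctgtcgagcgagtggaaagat

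All 34 member symbols matched, with 50 windows, and ACGTG or GCGTG occurred in 76.0% of them against 43.8% of all 32851 windows. The member windows had a median GC content of 59.5% and all windows 52.7%, and among all windows with a GC content of at least 59.5% the share was 68.9%, but these windows had a higher median GC content of 66.3% and so are not matched to the members. The E-box letters CACGTG, which contain ACGTG and so overlap with the first search, occurred in 8.0% of member windows and 7.15% of all. TGACNNNGC, the core of the antioxidant response element, occurred in 10.0% and 12.4%. Hk1, which fell, had 5 matches to the first motif in its first window and none in its second, while Tpi1, Gpi1, Rpe, Bpgm, Eno2 and Fbp1 had none. A match describes letters in the window and not a bound site.

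Glucose enters and lactate leaves the cell through other genes, a list of 8 of which all were tested. In NUP98-NSD1 against NRASG12D 2 were higher and 2 lower, where 42.2% of all tested genes were called higher and 9.98% lower. In NUP98-NSD1+NRASG12D against NRASG12D 4 were higher and 2 lower, where the shares of all tested genes were 24.2% and 14.1%. Between the groups with the fusion 1 was higher, beside 2.3% of all tested genes. Slc16a3, the lactate exporter MCT4, had 19.0, 23.97 and 20.1 FPKM in the NRASG12D libraries, 19.3, 16.3 and 24.8 in NUP98-NSD1 and 86.4, 98.0 and 358 in NUP98-NSD1+NRASG12D. It was the gene called between the groups with the fusion (2.81 ± 0.53 SE, adjusted p = 0.0251), and it rose by 2.73 ± 0.51 (SE, adjusted p = 0.00658) against NRASG12D. Slc16a1, the transporter MCT1, had 3.66, 3.801 and 3.20 FPKM in the NRASG12D libraries, 24.1, 22.8 and 16.0 in NUP98-NSD1 and 39.0, 16.3 and 20.4 in NUP98-NSD1+NRASG12D, and rose by 2.25 ± 0.16 (SE, adjusted p = 0.000218) and 2.43 ± 0.31 (SE, adjusted p = 0.0013) against NRASG12D.

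The glucose transporters moved in different directions. Slc2a1, GLUT1, had 29.9, 36.8 and 28.9 FPKM in the NRASG12D libraries, 38.4, 32.1 and 30.6 in NUP98-NSD1 and 59.9, 57.6 and 107 in NUP98-NSD1+NRASG12D and rose in NUP98-NSD1+NRASG12D against NRASG12D (1.15 ± 0.26 SE, adjusted p = 0.0137). Slc2a3, GLUT3, had 77.9, 104 and 93.5 FPKM in the NRASG12D libraries, 33.9, 36.3 and 49.3 in NUP98-NSD1 and 9.01, 26.3 and 7.98 in NUP98-NSD1+NRASG12D. It fell in both comparisons, with -1.19 ± 0.17 (SE, adjusted p = 0.00191) and -2.77 ± 0.42 (SE, adjusted p = 0.00256). Slc2a6 fell too, by 0.57 and 1.31 on the log2 scale, and Bsg, the chaperone of the lactate transporters, was higher by 0.33 ± 0.08 (SE, adjusted p = 0.0138) in NUP98-NSD1. The Bsg call held in 7 of 13 alternative fits. After median-ratio scaling, 1 gene of the list was higher and 2 were lower in NUP98-NSD1, and 3 were higher and 2 lower in NUP98-NSD1+NRASG12D, against NRASG12D. Of all 13493 tested genes, 3231 were then higher and 2950 lower, and 2773 and 2449, in the same order.

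**Figure D4:**
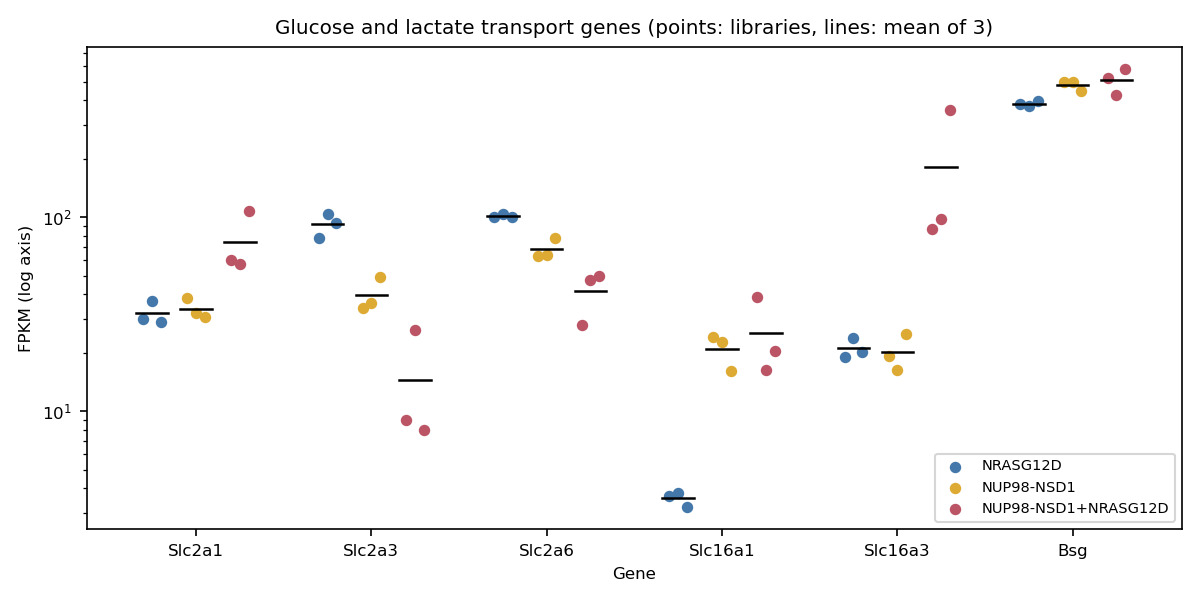
FPKM of 6 transport genes on a log axis, with a point per library and a line at the mean of 3 libraries. Slc16a3 lies between 86.4 and 358 FPKM in NUP98-NSD1+NRASG12D and below 25 in both other groups, and Slc2a3 runs in the opposite direction.

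A second list held 34 further enzymes of these pathways, of which 33 symbols were in the tables and 19 genes were tested. In NUP98-NSD1 against NRASG12D 14 were higher and 1 lower, beside 42.2% and 9.98% of all tested genes. In NUP98-NSD1+NRASG12D against NRASG12D 12 were higher and 3 lower, beside 24.2% and 14.1%. None passed between the groups with the fusion. The medians of the difference were 0.61, 0.74 and 0.31, beside 0.27, 0.23 and -0.06 over all tested genes. Median-ratio scaling left 8 higher and 1 lower in the first comparison, beside 3231 higher and 2950 lower of all 13493 tested genes. Prps1, which makes the activated ribose for nucleotides, had 11.2 to 15.4 FPKM in NRASG12D, 36.1 to 55.7 in the NUP98-NSD1 libraries and 35.7 to 84.2 in NUP98-NSD1+NRASG12D, and rose by 1.72 ± 0.18 (SE, adjusted p = 0.000878) and 1.90 ± 0.31 (SE, adjusted p = 0.00369) against NRASG12D. Pgp, a phosphatase that removes side products of glycolysis, rose by 1.44 ± 0.23 (SE, adjusted p = 0.0029) and 2.19 ± 0.22 (SE, adjusted p = 0.000516). H6pd, the reticulum counterpart of G6pdx, rose by 1.26 ± 0.16 (SE, adjusted p = 0.00144) in NUP98-NSD1. Tigar, a phosphatase that lowers fructose-2,6-bisphosphate, had 0.799, 0.954 and 0.831 FPKM in NRASG12D and passed the filter only through the other groups. Its difference of 2.15 in NUP98-NSD1+NRASG12D is given with no test, though it is counted among the 12 called higher. Pdk2 fell in contrast to Pdk1, with 8.77, 9.29 and 12.3 FPKM in NRASG12D, 6.61, 5.26 and 5.28 in NUP98-NSD1 and 2.80, 3.89 and 1.60 in NUP98-NSD1+NRASG12D and differences of -0.72 ± 0.15 (SE, adjusted p = 0.0076) and -1.60 ± 0.27 (SE, adjusted p = 0.00405). Shpk (-0.69) and Pdp2 (-0.65) also fell in NUP98-NSD1+NRASG12D.

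Of 17 glycogen genes 15 were tested. In NUP98-NSD1 against NRASG12D 7 were higher and 2 lower, which became 2 higher and 4 lower after median-ratio scaling. In NUP98-NSD1+NRASG12D against NRASG12D 7 were higher and 3 lower under either scaling, and between the groups with the fusion 3 were higher. Before scaling, 42.2%, 24.2% and 2.3% of all tested genes were called higher and 9.98%, 14.1% and 6.31% lower in the 3 comparisons. After scaling, 3231, 2773 and 312 of the 13493 tested genes were higher and 2950, 2449 and 633 lower. Gys1, glycogen synthase, had 6.12, 5.89 and 7.03 FPKM in the NRASG12D libraries, 16.4, 16.4 and 11.4 in NUP98-NSD1 and 38.5, 26.4 and 36.3 in NUP98-NSD1+NRASG12D. It passed in all 3 comparisons, with 1.08 ± 0.16 (SE, adjusted p = 0.00214), 2.23 ± 0.19 (SE, adjusted p = 0.000255) and 1.14 ± 0.22 (SE, adjusted p = 0.0266). The Gys1 calls held in 13, 13 and 7 of 13 alternative fits. Pgm1, phosphoglucomutase, had 19.6 to 22.5, 22.9 to 34.7 and 50.1 to 77.9 FPKM, and passed in both comparisons of NUP98-NSD1+NRASG12D (1.59 and 1.12). Gbe1, the branching enzyme, rose by 0.49 and 1.79 against NRASG12D (called in 5 and 12 of 13 alternative fits). Phka2 rose by 0.94 in NUP98-NSD1, and Ugp2 by 0.90 between the groups with the fusion. Phka1 and Pgm2l1 fell against NRASG12D, by 0.58 and 0.54 in NUP98-NSD1 and by 1.30 and 1.10 in NUP98-NSD1+NRASG12D, and Pygb, brain glycogen phosphorylase, fell by 0.56 in the latter.

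Many glycolytic genes are known targets of the hypoxia-inducible factors, so 22 hypoxia-inducible genes outside glycolysis were listed, of which 20 were tested. In NUP98-NSD1 against NRASG12D 6 were higher and 4 lower, and in NUP98-NSD1+NRASG12D against NRASG12D 10 were higher and 5 lower. Between the groups with the fusion 4 were higher and 2 lower. Of all tested genes, 42.2%, 24.2% and 2.3% were called higher and 9.98%, 14.1% and 6.31% lower in these comparisons. The medians were 0.22, 0.61 and 0.30, beside 0.27, 0.23 and -0.06 over all tested genes. After median-ratio scaling the first comparison counted 5 higher and 8 lower, beside 3231 higher and 2950 lower of all 13493 tested genes. Egln3, a prolyl hydroxylase, had 0.0158, 0.0537 and 0.0508 FPKM in the NRASG12D libraries. It had 9.88, 10.8 and 2.25 in NUP98-NSD1 and 38.8, 15.7 and 38.6 in NUP98-NSD1+NRASG12D. Egln3 thus passed the filter of 1 FPKM only through the groups with the fusion. Its differences from NRASG12D, 2.84 and 4.84, are given with no test, though it is counted among the 6 and the 10 called higher. Anxa2, a membrane-binding annexin, rose by 3.60 ± 0.29 (SE, adjusted p = 0.000323), 5.82 ± 0.24 (SE, adjusted p = 3.37e-05) and 2.22 ± 0.37 (SE, adjusted p = 0.0179) in the 3 comparisons.

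Among the other genes of the hypoxia list, Mif, a cytokine, rose by 1.77 in NUP98-NSD1, and Ankrd37 by 3.45 in NUP98-NSD1+NRASG12D. Ankrd37 had only 0.589, 0.208 and 1.11 FPKM in the NRASG12D libraries, so it passed the filter mainly through the groups with the fusion. Bnip3, a mitophagy receptor, and Ndrg1 rose between the groups with the fusion, by 1.82 and 1.23. Other genes of the list fell. P4ha2, a collagen prolyl hydroxylase, had differences of -1.50 and -1.71 against NRASG12D, Ero1l, a reticulum oxidase, -0.76 and -1.30, and Kdm3a, a histone demethylase, -0.39 in NUP98-NSD1. Ddit4, an inhibitor of mTORC1, fell in both comparisons of NUP98-NSD1+NRASG12D (-1.48 and -1.34), and Car9, a carbonic anhydrase, fell between the groups with the fusion (-1.24). The list thus did not move in one direction.

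NRF2 drives pentose phosphate genes and other antioxidant genes, and 13 of the latter were listed and tested. In NUP98-NSD1 against NRASG12D 4 were higher and 1 lower, where 42.2% of all tested genes were called higher and 9.98% lower. In NUP98-NSD1+NRASG12D against NRASG12D 4 were higher and 4 lower, where the shares of all tested genes were 24.2% and 14.1%. Between the groups with the fusion 3 were lower, beside 6.31% of all tested genes. After median-ratio scaling the first comparison counted 2 higher and 3 lower and the second 3 higher and 5 lower. All 13493 tested genes then counted 3231 higher and 2950 lower in the first and 2773 and 2449 in the second. Nqo1, a quinone reductase used as an NRF2 readout, had 147, 154 and 143 FPKM in the NRASG12D libraries, 83.3, 97.2 and 163 in NUP98-NSD1 and 8.14, 10.6 and 4.10 in NUP98-NSD1+NRASG12D. It fell by 4.19 against NRASG12D and by 3.76 against NUP98-NSD1 on the log2 scale (adjusted p = 0.00015 and 0.00564). Gsr, glutathione reductase, had 15.9, 23.7 and 22.2 FPKM in the NRASG12D libraries, 78.2, 81.9 and 56.0 in NUP98-NSD1 and 173, 119 and 352 in NUP98-NSD1+NRASG12D, and rose by 1.76 ± 0.19 (SE, adjusted p = 0.000969) and 3.19 ± 0.39 (SE, adjusted p = 0.00111) against NRASG12D. Txn1, thioredoxin, rose by 0.70 and 0.82, Keap1, the repressor of NRF2, by 0.35 in NUP98-NSD1, and Slc7a11, the cystine transporter, by 1.85 in NUP98-NSD1+NRASG12D. Txnrd1, thioredoxin reductase, fell in both comparisons of NUP98-NSD1+NRASG12D (-0.97 and -0.86).

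Of 10 other NADPH sources, all tested, 4 were higher and 3 lower in each comparison with NRASG12D. Over all tested genes, 42.2% were higher and 9.98% lower in NUP98-NSD1, and 24.2% and 14.1% in NUP98-NSD1+NRASG12D. Between the groups with the fusion 1 source was lower, beside 6.31% of all tested genes. Median-ratio scaling gave 3 higher in both comparisons with NRASG12D, with 3 lower in the first and 4 in the second. Of all 13493 tested genes it called 3231 higher and 2950 lower in the first, and 2773 and 2449 in the second. Idh1, the cytosolic NADP-dependent isocitrate dehydrogenase, had 15.0, 19.4 and 12.9 FPKM in the NRASG12D libraries, 102, 108 and 32.1 in NUP98-NSD1 and 143, 116 and 123 in NUP98-NSD1+NRASG12D, and rose by 2.12 ± 0.44 (SE, adjusted p = 0.00739) and 2.95 ± 0.19 (SE, adjusted p = 0.000106). Idh2, its mitochondrial counterpart, rose by 1.52 and 1.60, and Mthfd1, of the folate cycle, by 1.28 and 1.10. Me1, the cytosolic malic enzyme, which also stands in the NRF2 list, had 5.91, 7.43 and 5.99 FPKM in the NRASG12D libraries, 2.51, 2.60 and 4.93 in NUP98-NSD1 and 0.286, 1.08 and 0.958 in NUP98-NSD1+NRASG12D. It fell in all 3 comparisons, with -0.81 ± 0.22 (SE, adjusted p = 0.0187), -2.09 ± 0.23 (SE, adjusted p = 0.000763) and -1.28 ± 0.29 (SE, adjusted p = 0.0424). These Me1 calls held in 8, 13 and 4 of 13 alternative fits. Aldh1l1, a folate enzyme, also fell against NRASG12D (-1.43 and -2.56), as did Me2 in NUP98-NSD1 (-0.22, called in 5 of 13 alternative fits). Aldh1l2 had at most 0.740 FPKM in the NUP98-NSD1+NRASG12D libraries and passed the filter only through the other groups. Its difference of -0.72 from NRASG12D there is given with no test, though it is counted among the 3 called lower.

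Among the NUP98-NSD1 libraries, replicate 3 had the lowest mean log2(FPKM + 1) over the members, 5.33. It also had the highest mast cell sum of its group (17477 FPKM without Cpa3, against 13672 and 14268) and the lowest neutrophil sum. Among the NUP98-NSD1+NRASG12D libraries, replicate 2 had the lowest mean, 5.79, the highest mast cell sum (2514 FPKM, against 617 and 459) and the lowest neutrophil sum (9007 FPKM, against 14985 and 19951). The neutrophil markers did not move as 1 block there. Against replicate 1, replicate 2 was lower in Mpo, Elane, Prtn3, Ctsg, Csf3r and Cebpe and higher in Ltf, Camp, Ngp, S100a8, S100a9 and Retnlg, and replicate 3 had the lowest Mpo (131 FPKM). The monocyte and macrophage sum of replicate 2 was 10506 FPKM, against 4007 in replicate 1 and 10609 in replicate 3. The NRASG12D libraries did not follow the same order. Their lowest mean, 4.86 in replicate 1, went with the lowest mast cell sum (30017 FPKM), and replicate 3 had the lowest neutrophil sum (26.6 FPKM). The part of cell type makeup in the differences of the enzyme genes was not tested.

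**Figure D5:**
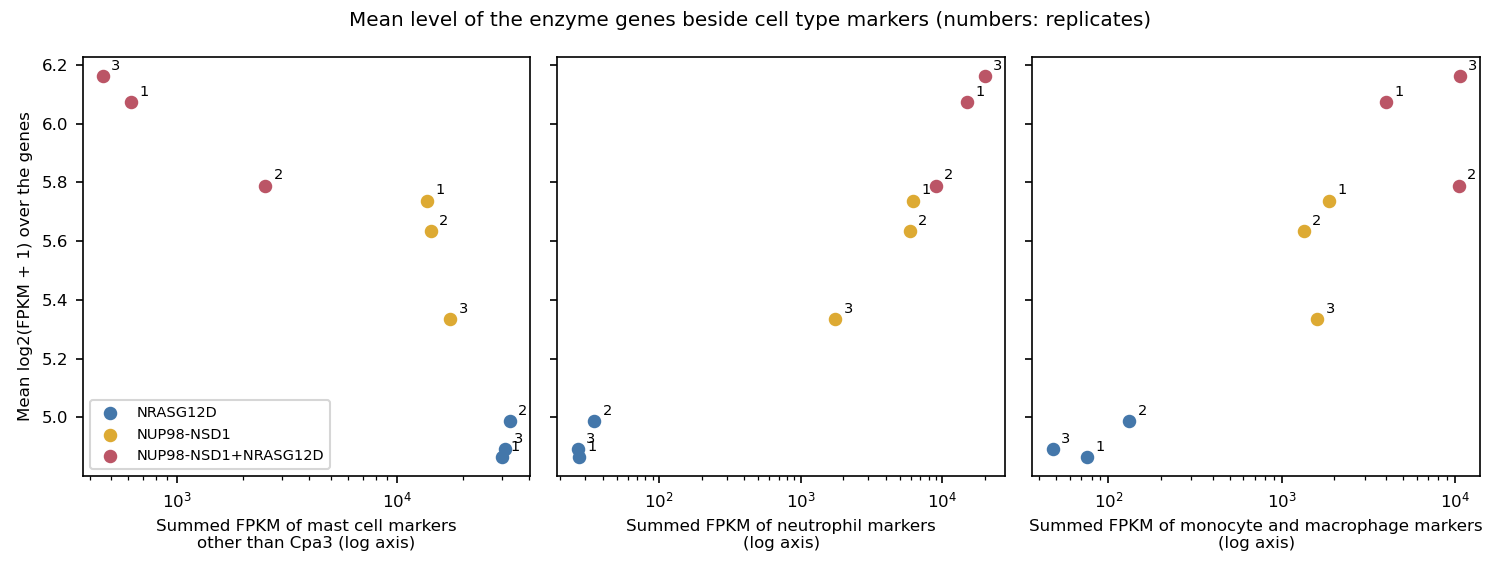
The mean log2(FPKM + 1) over the 35 identifiers of each library is plotted against the summed FPKM of mast cell markers other than Cpa3, neutrophil markers, and monocyte and macrophage markers, on log axes. In each group with the fusion the library with the lowest mean has the lowest neutrophil sum and the highest mast cell sum of its group. In NRASG12D the library with the lowest mean, replicate 1, has the lowest mast cell sum instead. The monocyte and macrophage panel does not follow this order either (10506 FPKM in replicate 2 and 4007 in replicate 1 of NUP98-NSD1+NRASG12D).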

How the data were processed

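The authors sequenced 9 RNA libraries as paired-end reads of 50 bp. The authors deposited a Cufflinks table of gene FPKM for each library. The submitters' processing notes name STAR 2.7.2a, Cufflinks 2.2.1 and GRCm38.p6, and the methods name the GENCODE M22 annotation. The handling of reads with several alignments and of strand is not given in the sources used here. FPKM are scaled to the mapped fragments of a library, so a few very abundant genes can shift all others. Each table held 55330 lines and 55274 identifiers, with repeated identifiers added up. Groups and replicate numbers were taken from the labels. Coordinates are GRCm38, counted from 1, from GENCODE M21, in which 54882 identifiers were found, 54867 with equal coordinates.

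FPKM hold no counts, and the count tests named in the methods were not run on them. Depth was estimated from the steps between low FPKM values of 3386 genes with a single transcript of over 2500 bp, and 86.3% to 90.1% of these values fell on whole steps in a library. The floor of 3 fragments covers counting error only. limma 3.58.1, under R 4.3.3, was run on log2(FPKM + 1) with a trended prior variance, after a filter of 1 FPKM in 3 libraries, on the 6 libraries of each pair, adjusted by Benjamini-Hochberg over all 13493 tested genes. The test was checked on simulated data. With 3 libraries against 3, an exact permutation test cannot go below 0.1. No outlier check was made in groups of 3. Alternatives were a pseudocount of 0.1, no filter, median-ratio scaling, quantile normalization, a single fit, library weights, a replicate block, leaving out each library, and adding near copies. Isoenzyme shares are percent of the summed FPKM of a family, with no test.

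The members and gene lists were chosen with earlier results of these data known. All members are named. The differences of Hk3, Ldhb, Egln3, Tigar and Aldh1l2 from NRASG12D are given with no test. Library values and statistics are given for the isoenzyme families and for up to 10 members per comparison with the largest difference among those past the threshold without overlap, and for up to 3 genes per list and direction. Motifs were searched on both strands of the RefSeq windows. Python 3.11.15 was used with pandas 2.3.3 and numpy 2.4.6, and plots were drawn with matplotlib 3.10.9. Protein sequences were not used here.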

Additional observations from a re-analysis of the deposited data

How the results depend on the processing

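Of the member calls, the count between NUP98-NSD1 and NRASG12D went from 21 to 13 without a filter and to 12 in a single fit of all 9 libraries. The calls over all genes, 5689 higher and 1347 lower, went to 3857 and 1063, and to 2604 and 461. The count between the groups with the fusion went from 2 to 0 without a filter, 5 after median-ratio scaling, 5 after quantile normalization, 16 in a single fit and 20 with library weights, while the calls over all genes, 311 higher and 851 lower, went to 21 and 148, 312 and 633, 408 and 705, 840 and 1411, and 1183 and 2317. The member count ranged from 0 to 6 when a library was left out, being 0 without any 1 NUP98-NSD1 library or NUP98-NSD1+NRASG12D replicate 3, 4 without NUP98-NSD1+NRASG12D replicate 1 and 6 without its replicate 2. The calls over all genes moved as well. They were 90 higher and 327 lower, 27 and 275, and 28 and 255 without NUP98-NSD1 replicate 1, 2 or 3. Without NUP98-NSD1+NRASG12D replicate 1, 2 or 3 they were 875 and 1634, 213 and 865, and 79 and 415. The mean difference over the members went from 0.65 to 0.39 (median-ratio) and 0.41 (quantile) in NUP98-NSD1, and from 1.09 to 0.86 (quantile) in NUP98-NSD1+NRASG12D, against NRASG12D. Pdk3 turned from 0.25 to -0.052 and -0.058 under these scalings. With near copies added, the difference of Rpia from NRASG12D became 0.31 (before, 1.05) in NUP98-NSD1, and -0.075 (before, 1.23) in NUP98-NSD1+NRASG12D, which follows from the construction: Rpia shares 3.74% of its stretches, other genes such as Dhx33 then hold 55.3% to 88.1% of the sum, and the value says nothing about the reads of Rpia.

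The labels do not say that a replicate number marks a pair. After removing group means, same-numbered libraries correlated at -0.067 to 0.061 in the comparisons with NRASG12D and at 0.160, -0.177 and 0.023 between the groups with the fusion. With a replicate block, limma called 22, 23 and 1 members in the 3 comparisons, against 21, 24 and 2. Over all 13493 tested genes the block gave 5611 higher and 1253 lower, 2873 and 1658, and 199 and 602 in the same order. The 22 were 19 higher and 3 lower, with Hk1, Pfkfb2 and Eno3 called lower at adjusted p of 0.0292, 0.035 and 0.0391 by limma, and the 1 was Hk1, with Hk2 at 0.0549. Of the refits of single called members in these comparisons, 231, 294 and 12 kept direction and call, 49, 28 and 14 kept the direction only, and 2, 1 and 0 reversed. Named genes of the other lists called between the groups with the fusion kept their call in 4 (Me1) to 12 (Nqo1) of 13 alternative fits. Depth limits Hk3 and Ldhb in NRASG12D, which rest on few fragments in most of its libraries.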
